A study of Mus musculus with 6 samples.

Results

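The LIF receptor and Stat3 pathway was followed in mouse embryonic stem (ES) cells through 8 genes: the receptor chains Lifr and Il6st, the kinases Jak1 and Jak2, the transcription factor Stat3, its feedback inhibitor Socs3, and the kinase genes Pim1 and Pim3. They were chosen by gene symbol, and the brightest probe set on average over the 6 arrays stood for each. All 8 were found among the 18193 genes of the table, with 24 probe sets. RNA of 3 haploid lines, which carry 1 set of chromosomes, was compared with RNA of 3 diploid samples on Affymetrix GeneChip 430 arrays, 1 array per sample. The haploid lines were HAP1 (passage 24) and HAP2 (passage 21), both of strain F1 CBAxB6, and HTG1 (passage 11), labelled mixed transgenic with no transgene named. The diploid samples were labelled male, 129Sv for replicates 1 and 2 and 129 for replicate 3, with no line name and no passage. All were grown in 2i medium, in which MEK and GSK3 are blocked by small-molecule inhibitors, and RNA was taken on day 2 after passaging. Whether LIF was added to that medium, and what share of the cells was still haploid at harvest, are not stated in the labels. Strain, and the male sex given for the diploid samples, went with ploidy and cannot be told apart from it. The design calls the samples of a group biological replicates, but nothing says that the diploid samples were separate lines, so p-values measure the spread between these arrays.

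LIF is a cytokine that binds the LIF receptor, encoded by Lifr, which then pairs with gp130, encoded by Il6st. Kinases of the JAK family bound to these chains phosphorylate each other, the receptor and STAT3, which moves to the nucleus and switches on target genes. In mouse ES cells this route is known for sustaining self-renewal, while SOCS3 binds the activated receptor and damps the signal, and PIM kinases are growth and survival kinases whose genes STAT3 can induce. The arrays measure RNA, so the phosphorylation that carries the signal was not seen.

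The deposited values are log2 intensities made with RMA, and their median lay between 6.31 and 6.34 on the 6 arrays. Diploid replicates 2 and 3 were the closest pair (Pearson's r across probe sets 0.9949), and pairs of a haploid and a diploid array lay between 0.9743 and 0.9825. The 7 ES cell markers had means of at least 12.27, and 2 of them were higher in the haploid lines in limma, Pou5f1 by 0.40 (log2, adjusted p = 0.0246) and Nanog by 0.47 (adjusted p = 0.0227), with 4 of 7 at an unadjusted p under 0.05. Markers of primitive endoderm, mesoderm and trophoblast had 0 of 13 measured genes past an adjusted p of 0.05 in limma, which 14.9% of all genes passed. Of the 13, 1 had an unadjusted p under 0.05. The share of all genes at an unadjusted p under 0.05 was not counted, so such counts here only describe the markers. Of 4 neural markers Sox1 alone passed, as lower in the haploid lines, with 2 of 4 at an unadjusted p under 0.05. Tubb3 differed by -0.60 (limma adjusted p = 0.134), Neurog2 by -0.24 (0.167) and Pax6 by -0.09 (0.628). Of 7 fibroblast markers, which would mark feeder cells, all 7 had differences below 0, 6 of them at an unadjusted p under 0.05, and 1 passed as lower in the haploid lines. This was the collagen Col1a2, at 9.34, 8.41 and 8.38 in diploid replicates 1 to 3 and at 6.36, 5.73 and 6.17 in HAP1, HAP2 and HTG1. Col3a1 differed by -2.02 (limma adjusted p = 0.121) and Postn by -1.25 (limma adjusted p = 0.0571). The summed level of the 7 ranged from 9.73 to 10.6 (log2 of the sum) in the diploid and from 8.58 to 8.97 in the haploid samples. No fibroblast marker can be said to be at 0 on an array, and Lum had the lowest mean (4.03). The difference between 3' and 5' probe sets of the beta-actin control, which grows as RNA degrades, was 0.34 to 0.46 (log2) in the diploid and 0.18 to 0.24 in the haploid samples. The fibroblast levels and this difference separate the groups in the same way as ploidy does. Their part in the results that follow was not tested, and in bulk RNA fewer cells of a type and less RNA per cell cannot be told apart.

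The promoters of the 3 members with the largest differences are shown to give the sequence around their start sites, from RefSeq on GRCm38.p6. Each window runs from 250 bases before to 50 after the annotated start, 5' to 3' on the gene's strand. Capitals mark TTCNNNGAA, the core of the site that STAT proteins bind, which reads the same on both strands. Pim1 has a further window, not shown.
Socs3, chr11:117969317-117969616, minus strand: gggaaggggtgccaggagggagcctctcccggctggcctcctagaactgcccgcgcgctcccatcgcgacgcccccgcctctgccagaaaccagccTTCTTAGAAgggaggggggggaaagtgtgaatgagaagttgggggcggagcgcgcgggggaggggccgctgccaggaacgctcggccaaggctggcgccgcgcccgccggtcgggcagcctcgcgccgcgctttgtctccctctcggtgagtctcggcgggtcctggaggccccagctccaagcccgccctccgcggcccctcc
Stat3, chr11:100939491-100939790, minus strand: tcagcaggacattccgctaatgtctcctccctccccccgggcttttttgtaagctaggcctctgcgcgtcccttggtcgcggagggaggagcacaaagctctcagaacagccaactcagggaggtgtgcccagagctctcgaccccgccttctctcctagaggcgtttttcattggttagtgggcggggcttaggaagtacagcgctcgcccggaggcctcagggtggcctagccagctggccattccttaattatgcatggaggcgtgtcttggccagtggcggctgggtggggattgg
Pim1, chr17:29490535-29490834, plus strand: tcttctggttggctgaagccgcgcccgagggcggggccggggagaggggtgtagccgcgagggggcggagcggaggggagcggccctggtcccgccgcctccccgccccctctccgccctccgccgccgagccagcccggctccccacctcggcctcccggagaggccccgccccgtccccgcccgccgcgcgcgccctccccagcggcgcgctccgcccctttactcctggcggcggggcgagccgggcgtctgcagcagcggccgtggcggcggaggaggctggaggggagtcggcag
The Socs3 window held the motif once, as TTCTTAGAA, with its first base 154 bases before the start. The 8 members had 10 promoter windows in the RefSeq table, and the motif was in that window of Socs3 and in no other. Among all 32851 promoter windows of the same length, 8.3% held the motif. A match describes the letters only.

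Of the 8 members, 3 fell and 1 rose in the haploid lines at a Benjamini-Hochberg adjusted p under 0.05 in limma. Stat3, Socs3 and Lifr fell by 1.81-fold, 3.17-fold and 1.4-fold, and Pim1 rose by 2.79-fold. Over all 18193 genes 14.9% passed, 7.92% as higher and 6.96% as lower. Brighter genes passed more often: in the fit on genes above the median level, 2413 of 9096 passed, and 4 of the 7 members it held. The members were picked by function with earlier results of these data known, and 8 genes are too few to read more than their own values from the count. Their median difference was -0.11 (log2), against -0.03 over all genes. The haploid and diploid values did not overlap for 5 of the 8, which were Lifr, Jak1, Stat3, Socs3 and Pim1, against 37.9% of all genes.

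**Figure D1:**
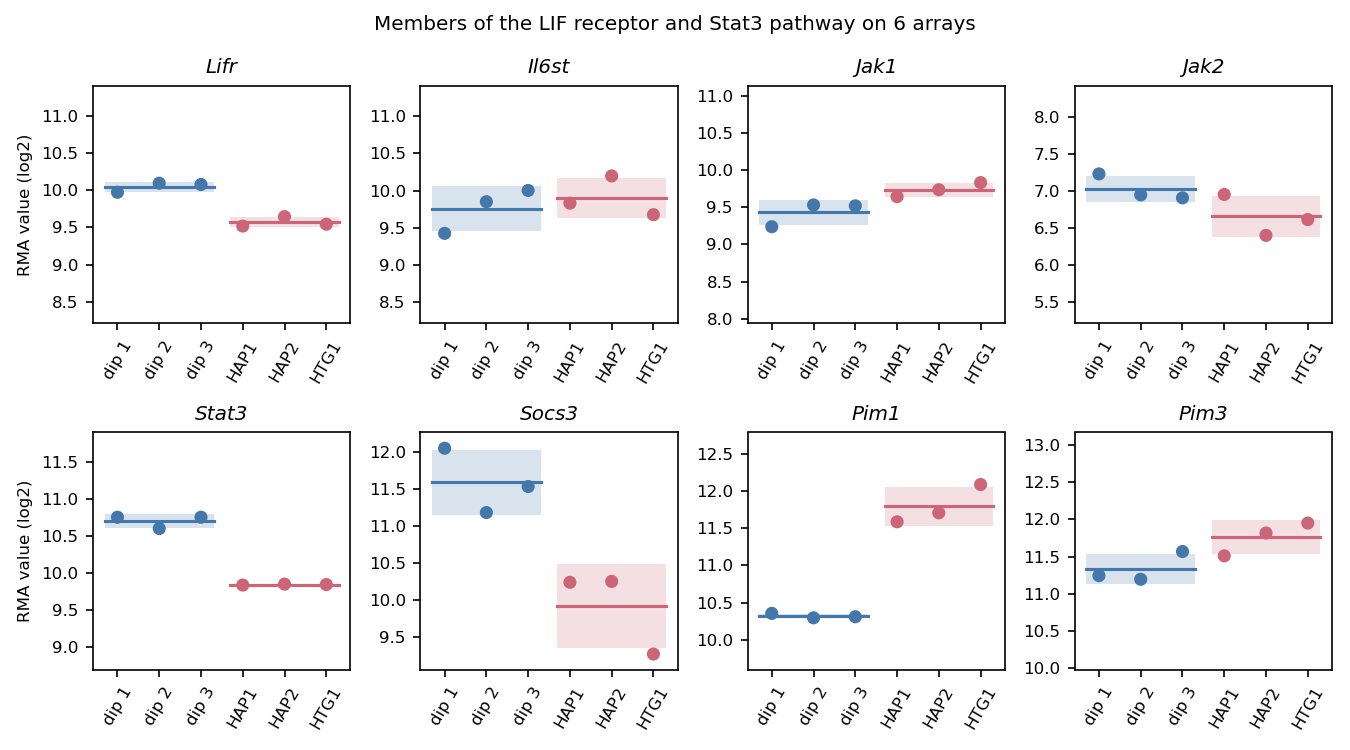
Deposited RMA value (log2, vertical axis) of each member on the 6 arrays (horizontal axis; dip 1 to dip 3 are the diploid replicates), with the group mean as a line and 1 SD as a band. All panels span the same log2 range. The diploid values lie above the haploid ones for Lifr, Stat3 and Socs3 and below them for Jak1 and Pim1.

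Lifr, the chain that gives the receptor its specificity for LIF, stood at 9.97, 10.1 and 10.1 (log2) in diploid replicates 1, 2 and 3 and at 9.52, 9.65 and 9.54 in HAP1, HAP2 and HTG1. All 3 haploid lines lay below all diploid samples, and each group was tight, with an SD of 0.07 in both. The difference of -0.48 ± 0.09 (log2, SE, n = 3 per group) had a limma adjusted p of 0.0167. It was -0.46 without diploid replicate 2 and -0.47 without diploid replicate 3, and did not pass there (limma adjusted p = 0.0654 and 0.0716). Il6st, the signalling chain shared by the IL-6 family of receptors, stood at 9.42, 9.85 and 10.0 in the diploid samples and at 9.83, 10.2 and 9.67 in HAP1, HAP2 and HTG1. Its groups overlapped, and the difference was 0.14 ± 0.19 (limma adjusted p = 0.653), with a 95% interval from -0.31 to 0.60. It turned to -0.02 without diploid replicate 1, its lowest sample, and to -0.01 without HAP2, its highest. Whether the receptor chains differ from each other in their response was not tested.

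Jak1, the kinase that gp130 chiefly relies on, stood at 9.24, 9.53 and 9.52 (log2) in the diploid samples and at 9.64, 9.74 and 9.83 in HAP1, HAP2 and HTG1. The groups did not overlap, yet the difference of 0.31 ± 0.12 did not pass (limma adjusted p = 0.122; 95% interval 0.03 to 0.58, not adjusted for the number of genes). Jak2, a related kinase that also serves receptors of other cytokines, stood at 7.23, 6.94 and 6.90 in the diploid samples and at 6.95, 6.40 and 6.61 in HAP1, HAP2 and HTG1. HAP1 reached the range of the diploid samples. The difference was -0.37 ± 0.16 (limma adjusted p = 0.175; 95% interval -0.76 to 0.02).

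Stat3, which carries the signal to the nucleus, stood at 10.7, 10.6 and 10.7 (log2) in the diploid samples and at 9.83, 9.85 and 9.84 in HAP1, HAP2 and HTG1. On this probe set, 1426587_a_at, the 3 haploid lines were nearly equal, with an SD of 0.0065, although HTG1 differs from the others in strain and passage. The haploid SD was 0.04 on 1460700_at, 0.11 on 1424272_at and 0.23 on 1459961_a_at. On 1426587_a_at the difference of -0.86 ± 0.09 (SE, n = 3 per group) had a limma adjusted p of 0.00288, the lowest of the 3 members that fell. It passed without any 1 of the 6 arrays, where it lay between -0.91 and -0.83. Its size rested on the probe set. Without the probe sets that, by their names, may match several transcripts, Stat3 was represented by 1460700_at, with a difference of -0.40 (limma adjusted p = 0.0524). The mean of its 4 probe sets gave -0.34 (limma adjusted p = 0.0373). That mean includes the dim 1424272_at and 1459961_a_at, with means of 6.16 and 6.08.

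Socs3, the feedback inhibitor that STAT3 induces, showed the largest difference of the 8. It stood at 12.0, 11.2 and 11.5 (log2) in diploid replicates 1, 2 and 3 and at 10.2, 10.3 and 9.27 in HAP1, HAP2 and HTG1. HAP1 and HAP2 were within 0.012 of each other, HTG1 lay 0.97 below their mean, and the groups did not overlap. The difference was -1.66 ± 0.32 (SE, n = 3 per group, limma adjusted p = 0.0177). Without HTG1 it was -1.34 and passed (limma adjusted p = 0.0237). Without diploid replicate 1, where Socs3 was highest, it was -1.43 and passed (limma adjusted p = 0.0426). Without diploid replicate 3 it was -1.69 and did not pass (limma adjusted p = 0.0692). The probe set that stands for Socs3 is of the kind that may match several transcripts. Without such probe sets the difference was -1.04 (limma adjusted p = 0.0474), a smaller value by over 1.5 times.

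Pim1 moved the other way. It encodes a serine/threonine kinase that promotes growth and survival. Its values were 10.4, 10.3 and 10.3 (log2) in the diploid samples and 11.6, 11.7 and 12.1 in HAP1, HAP2 and HTG1. The diploid samples were close together (SD 0.03), and all haploid lines lay more than 1 unit above them, with HTG1 the highest. The difference was 1.48 ± 0.14 (SE, n = 3 per group, limma adjusted p = 0.00232), and it passed in all 15 settings tried, between 1.32 and 1.58. Pim3, a close relative of Pim1, stood at 11.2, 11.2 and 11.6 in the diploid samples and at 11.5, 11.8 and 12.0 in HAP1, HAP2 and HTG1. HAP1 lay below diploid replicate 3, so the groups overlapped. The difference of 0.42 ± 0.16 did not pass (limma adjusted p = 0.114; 95% interval 0.06 to 0.79). Without probe sets that may match several transcripts, Pim3 was represented by 1451069_at, with 0.61 and a limma adjusted p of 0.0436.

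Each member had from 2 to 4 probe sets, tested on their own against all 45037 probe sets that are no controls, of which 11.3% passed. Of the 24 probe sets, 3 were higher and 5 lower at a limma adjusted p under 0.05 over that larger table. Socs3 had 3 of 3 probe sets below 0, from -1.66 to -1.04, and 2 of them passed. Both Pim1 probe sets passed, at 1.48 and 1.16. Lifr was divided: 1425107_a_at, with a mean of 6.68, fell by 0.86 (limma adjusted p = 0.00645). The dimmest, 1450207_at, with a mean of 6.49, differed by 0.07 (limma adjusted p = 0.694). Both lay near the array medians of 6.31 to 6.34, where a difference is harder to see. For Stat3 the probe sets ran from -0.86 to 0.07, and the pair with the higher signals, 1426587_a_at and 1460700_at, had groups that did not overlap, although 1460700_at did not pass (limma adjusted p = 0.0573). For Jak1, 1433803_at differed by 0.36 with groups that did not overlap (limma adjusted p = 0.0607), and 1433804_at by -0.08 (limma adjusted p = 0.701). The probe sets of Il6st all lay above 0 and none passed. One of them, 1437303_at, stood at 9.22 in HTG1 against 6.77 and 7.43 in HAP1 and HAP2 and 7.08, 7.59 and 7.16 in the diploid samples. The other Il6st probe sets showed no such high value in HTG1. Where the probe sets lie on each transcript was not analysed here.

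**Figure D2:**
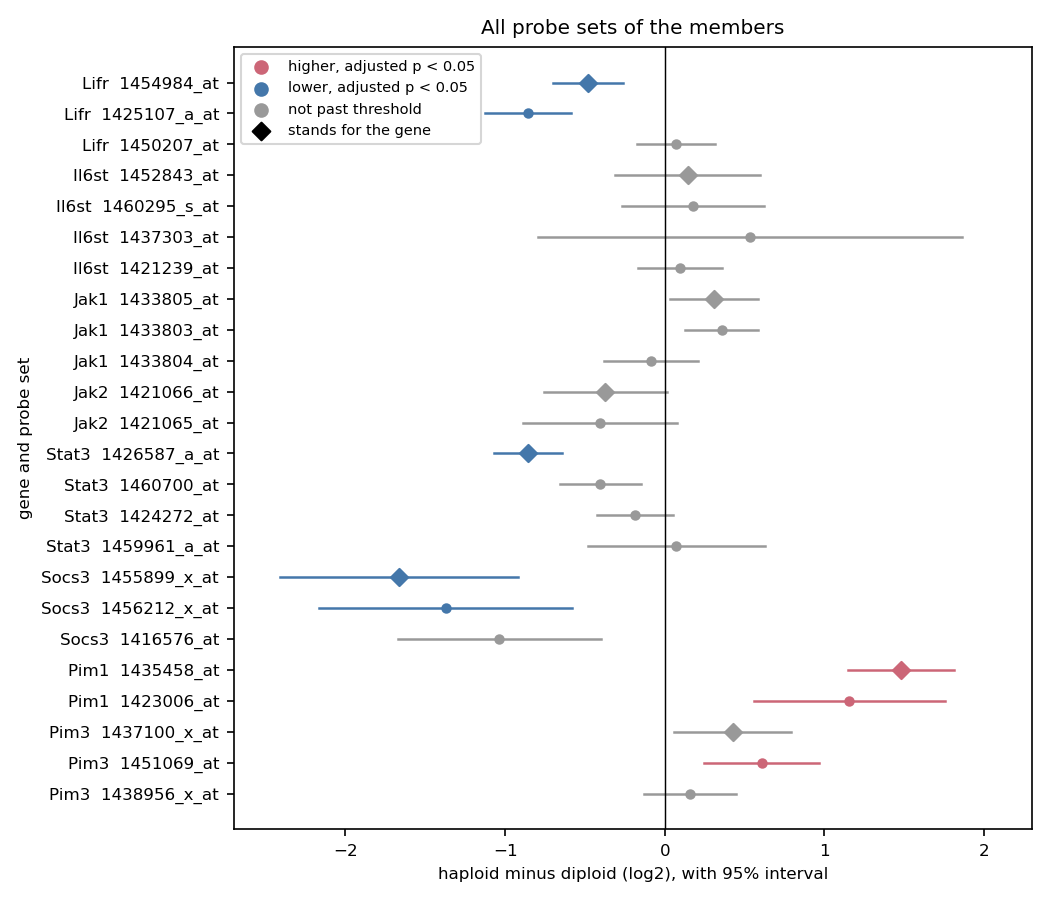
Haploid minus diploid difference (log2, horizontal axis) of every probe set of the 8 members (vertical axis), with its 95% interval from limma, not adjusted for the number of probe sets. Diamonds stand for the gene; blue and red mark probe sets past an adjusted p of 0.05. The Socs3 probe sets lie from -1.66 to -1.04 and the Pim1 probe sets at 1.48 and 1.16, while those of Lifr and Stat3 spread from below 0 to just above it.

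The haploid lines differed among themselves most in Socs3, by 0.98 (log2) from highest to lowest. The range was 0.55 for Jak2, 0.52 for Il6st, 0.50 for Pim1 and 0.44 for Pim3. It was 0.19 for Jak1, 0.13 for Lifr and 0.01 for Stat3, each on the probe set that stands for the gene. HTG1 was the highest of the 6 arrays in Jak1, Pim1 and Pim3 and the lowest in Socs3. Among the diploid samples Socs3 also varied most, by 0.87, followed by Il6st with 0.58. Diploid replicate 1 was the highest of the 6 arrays in Jak2 and Socs3 and the lowest in Il6st and Jak1. With 3 samples a group, these ranges are a description.

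Stat3 and Socs3 lie on chromosome 11, whose genes were lower as a whole in the haploid lines. Of its genes above the median level of all genes, 792 in number, 76.6% were lower, with a median of -0.27 (log2). Stat3 and Socs3 lay below that median by 0.59 and 1.40, and 5.3% and 0.631% of these 792 genes were lower still. With each chromosome's median subtracted, Stat3 differed by -0.59 (limma adjusted p = 0.00912) and Socs3 by -1.40 (limma adjusted p = 0.0314). On chromosome 15, which holds Lifr and Pim3, the median was 0.08, and on chromosome 17, which holds Pim1, 0.09. After subtraction Lifr differed by -0.56 and Pim1 by 1.38, and both passed (limma adjusted p = 0.0112 and 0.00332). Of the 462 genes of chromosome 17 above the median level, 98.1% lay below Pim1.

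**Figure D3:**
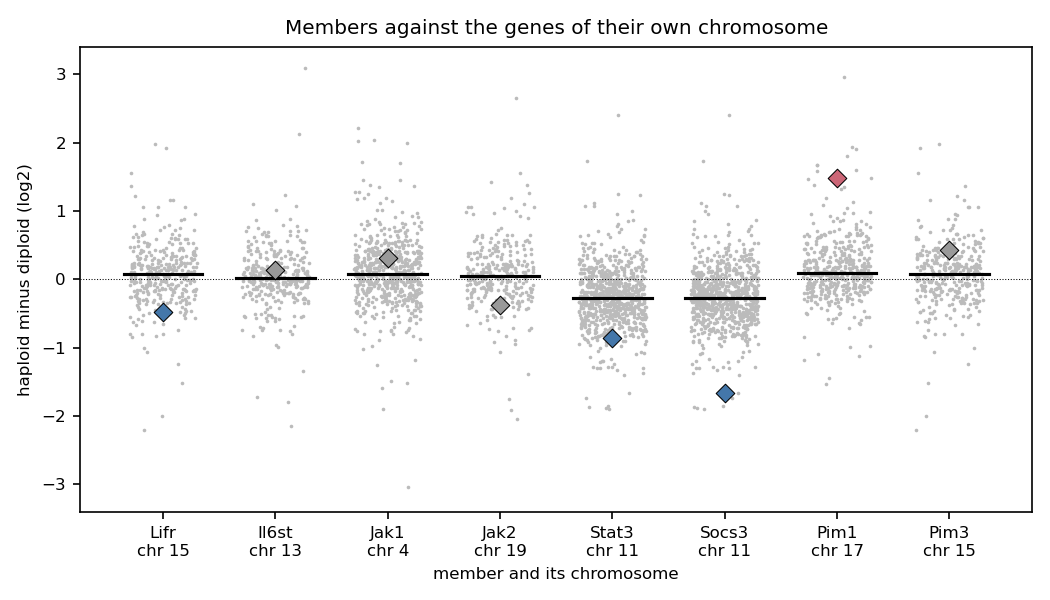
Haploid minus diploid difference (log2, vertical axis) of each member (diamond, coloured blue or red where it passed) among the genes of its own chromosome above the median level (grey points; horizontal axis, 1 column per member). The black lines are the chromosomes' medians. The median of chromosome 11 is -0.27, and Stat3 and Socs3 lie below it.

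Other genes of the pathway were read from 6 lists, of which 55 of 59 genes had a probe set with a single symbol. Of these 55, 8 rose and 3 fell in limma, or 20%, against 14.9% of all genes, and their median was 0.05 (log2). In the fit on genes above the median level, 9 of the 38 list genes it held passed, against 2413 of 9096 genes. Among the ligands of the family 1 of 6 rose: Osm, which encodes oncostatin M, by 1.82-fold (log2 0.86 ± 0.16, limma adjusted p = 0.0167). It did not pass without diploid replicate 2 (0.82, limma adjusted p = 0.0654) or HAP2 (0.84, 0.0549). Lif itself, named after its values were seen, stood at 7.30, 7.90 and 7.69 in the diploid samples and at 8.25, 8.10 and 8.18 in HAP1, HAP2 and HTG1. Its groups did not overlap, but the difference of 0.55 had a limma adjusted p of 0.0623. With chromosome 11's median subtracted it was 0.81 and passed (limma adjusted p = 0.0197). Averaged over its probe sets the difference was 0.39 and passed as well (limma adjusted p = 0.0391). It passed in 3 of 15 settings and in none of the 6 omissions (0.38 to 0.68, limma adjusted p = 0.0554 to 0.143). Among 5 other receptors 1 rose: Il6ra, the IL-6 binding chain, by 1.86-fold (limma adjusted p = 0.0288). It did not pass without diploid replicate 2 or 3, HAP1 or HTG1, where the difference lay between 0.75 and 0.90 (limma adjusted p = 0.0657 to 0.0981). The mean of its probe sets gave 0.54 (limma adjusted p = 0.0768).

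Of the other JAKs and STATs 1 of 7 fell. Stat5b, a transcription factor on chromosome 11 that other cytokines activate, differed by -0.71 ± 0.12 (log2, limma adjusted p = 0.0122). It was -0.45 with the chromosome's median subtracted (limma adjusted p = 0.0517) and -0.67 without diploid replicate 2 (0.0513), and passed in neither. Of the 15 inhibitors of the pathway outside Socs3, 1 rose: Pias3, known as an inhibitor of STAT3's binding to DNA, by 1.87-fold (limma adjusted p = 0.0116), though not without diploid replicate 3 (0.88, 0.0565). Socs1 and Socs2 are named outside the naming rule for the lists. Socs1 differed by -0.0017 (limma adjusted p = 0.991). Socs2 differed by -0.53 (limma adjusted p = 0.079), with groups that did not overlap. Non-overlap held for 4 of the 15 inhibitors and for 37.9% of all genes. No SOCS gene among those listed passed. Of 7 adaptors that tie the receptor to the ERK and PI3 kinase routes, 2 rose and 1 fell. Gab1, a docking protein, fell by 0.83 on the log2 scale (limma adjusted p = 0.00423) and Sos2, which activates RAS, rose 2.2-fold (limma adjusted p = 0.0105), and both passed without any 1 array. Gab1 lies on chromosome 8, and with that chromosome's median subtracted it differed by -0.51 and passed (limma adjusted p = 0.0194). The adaptor Shc1 rose 1.44-fold (limma adjusted p = 0.0388), but of the array omissions it passed only without HAP2. In the other 5 omissions its difference lay between 0.42 and 0.57 (limma adjusted p = 0.0575 to 0.131), and after a further quantile normalization it was 0.46 (limma adjusted p = 0.061).

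Of 15 other genes described as STAT3 targets, 3 rose and 1 fell, with a median of 0.23 (log2). Cebpb, a transcription factor of inflammation and differentiation, rose 2.79-fold (1.48 ± 0.19, limma adjusted p = 0.00515) and Klf4, a pluripotency factor, rose 1.6-fold (0.68 ± 0.09, limma adjusted p = 0.0054), and both passed without any 1 array. The related Klf5 rose 1.56-fold (limma adjusted p = 0.0327). It passed without HAP1 but not in the other 5 omissions (0.54 to 0.72, limma adjusted p = 0.0699 to 0.099), and without probe sets that may match several transcripts it differed by 0.22 (limma adjusted p = 0.598). The AP-1 subunit Junb, on chromosome 8, differed by -0.83 (limma adjusted p = 0.0449), and by -0.52 with that chromosome's median subtracted (limma adjusted p = 0.145). It did not pass without diploid replicate 2 or 3, HAP1 or HTG1 (-0.76 to -0.69, limma adjusted p = 0.101 to 0.147). Tfcp2l1 and Fos, named after their values were seen, did not pass (limma adjusted p = 0.0722 and 0.11). Tfcp2l1, a naive pluripotency factor, stood at 12.4, 12.4 and 12.3 in the diploid samples, 13.1 and 13.3 in HAP1 and HAP2 and 12.6 in HTG1. Its difference was 0.60, and 0.82 without HTG1, where it passed (limma adjusted p = 0.00981), while in the other 5 omissions it lay between 0.46 and 0.63 and did not pass (limma adjusted p = 0.134 to 0.191). Averaged over its probe sets it was 0.0988 (limma adjusted p = 0.586). Fos, another AP-1 subunit, stood at 7.90 in diploid replicate 1, 10.5 and 10.7 in diploid replicates 2 and 3, and 7.72, 8.30 and 6.74 in HAP1, HAP2 and HTG1. Its difference was -2.12, and -3.02 without diploid replicate 1, where it passed (limma adjusted p = 0.0138), while the other 5 omissions gave -2.47 to -1.64 and no pass (limma adjusted p = 0.137 to 0.288).

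**Figure D4:**
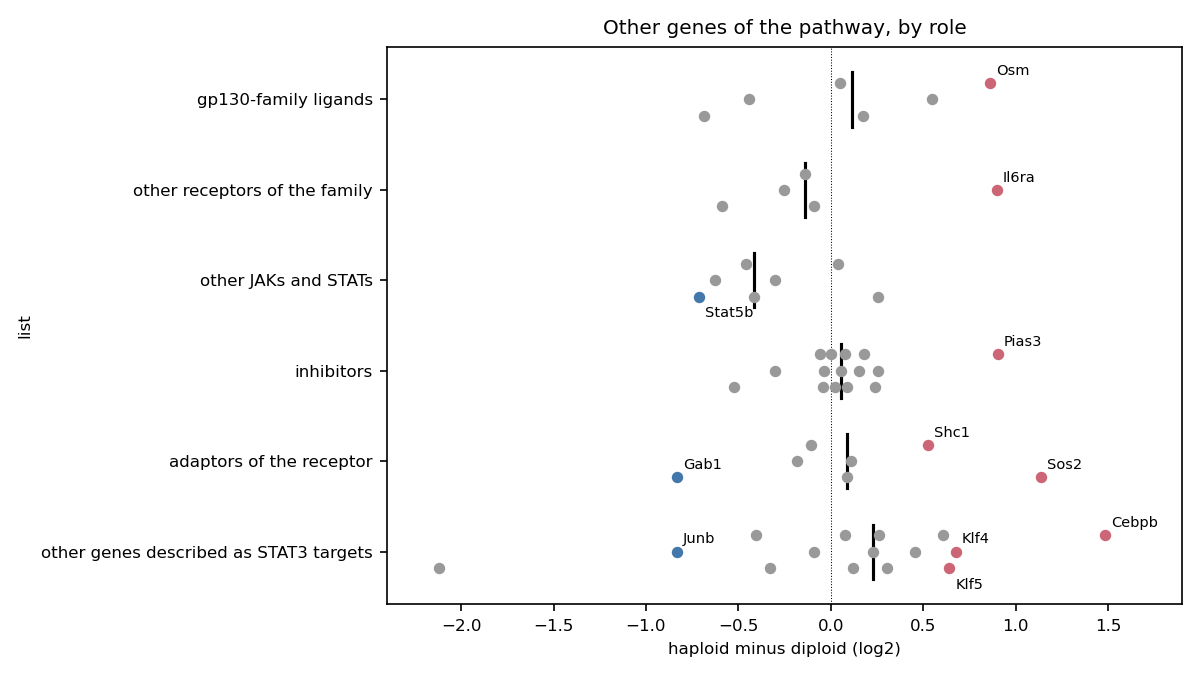
Haploid minus diploid difference (log2, horizontal axis) of 55 other pathway genes, 1 point each, by list (vertical axis), with the median of each list as a black line. Red and blue points, with their names, passed as higher and lower in limma. The 8 genes that rose and the 3 that fell are spread over all 6 lists.

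The genes whose values followed a member most closely over the 6 arrays were sought by Pearson's r among 5069 autosomal or unplaced genes above the median level with an SD of at least 0.2 (log2). The 6 arrays share 2 groups, so any gene that separates them tightly can reach a high r with a member that does too, and r is given as a description. Stat3 was followed most closely by Nup133, a nuclear pore protein (r = 0.999), and the cytokine receptor-like factor Crlf3 (0.998). For Socs3 these were the chondroitin synthase Chsy1 (0.993) and the prohormone of thyrotropin-releasing hormone, Trh (0.993). For Lifr they were Erlin2 (0.999) and Ppip5k2 (0.998), and for Pim1 Tmem183a (0.998) and Klhl24 (0.998). Jak1 was followed by the transcriptional co-regulator Cited2 (0.995) and C730049O14Rik (0.993), Jak2 by Fam241b (0.988) and the orphan receptor Gpr19 (0.984), Pim3 by Klhl8 (0.98) and Gnpda1 (0.979), and Il6st by the mitochondrial motor Myo19 (0.96) and Mppe1 (0.955). None of them is a gene of the 6 lists.

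**Figure D5:**
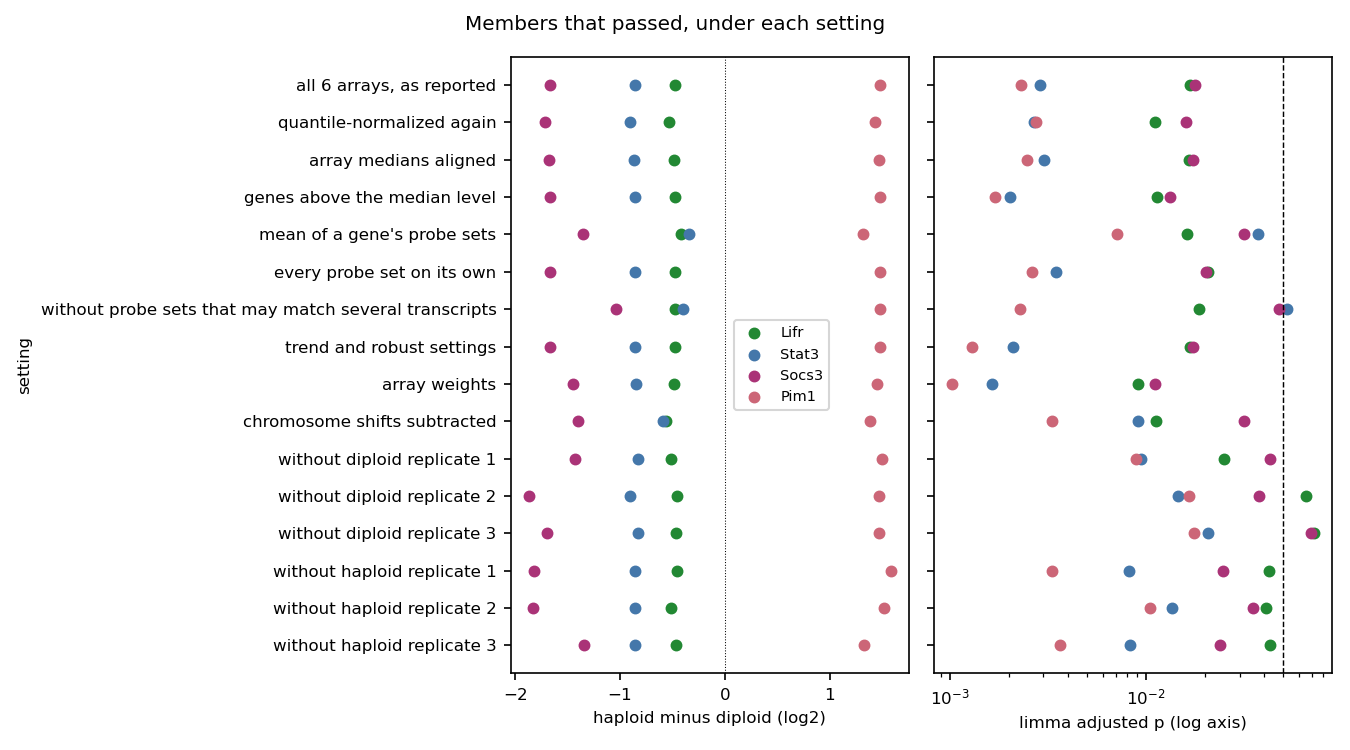
Haploid minus diploid difference (log2, left) and limma adjusted p (right, log axis; dashed line at 0.05) of the 4 members that passed, under each setting (vertical axis; haploid replicates 1, 2 and 3 are HAP1, HAP2 and HTG1). Signs held in all settings shown. Lifr lay above 0.05 without diploid replicate 2 or 3, Socs3 without diploid replicate 3, and Stat3 without probe sets that may match several transcripts.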

How the data were processed

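One Affymetrix array was used for each of 3 haploid and 3 diploid mouse ES cell RNA samples. The deposited values are log2 expression values per probe set from RMA, run by the authors (per the submitters' processing notes), and they range from 2.62 to 15.2. RMA's version, settings and set of arrays are not given in the sources used here. Because RMA gives arrays a common distribution, differences are relative to the bulk of genes and total RNA per cell is not seen.

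Of 45101 probe sets, 64 controls were left out of the tests. GEO's platform annotation gave 34945 probe sets 1 symbol, 932 several and 9160 none, and only the first were named. The probe set with the highest mean stood for each of 18193 genes, and 18032 were placed on a chromosome through RefSeq of GRCm38.p6. Groups came from the sample titles and were compared by limma (version 3.58.1, R 4.3.3) using lmFit and eBayes with defaults, two-sided tests, no covariate and no filter, with Benjamini-Hochberg adjustment over all genes and a threshold of 0.05. The number of arrays limits the precision. Intervals are limma's 95% intervals of the difference. The step was tested on simulated data with independent noise and no shift by strain or chromosome. That test cannot show how such shifts affect the calls made here.

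The members, lists and tests were chosen with earlier results of these data known. Text names all members, every list gene that passed, and for each member the 2 genes with the most similar values. Outside this rule it names cell type markers, and Lif, Tfcp2l1, Fos, Socs1 and Socs2, which did not pass. Alternatives were a further quantile normalization, alignment of the arrays' medians, a fit on the brighter genes (above the median level), averaging the probe sets of a gene, a fit of every probe set, removal of _x_at, _s_at and _a_at probe sets (which may match several transcripts), trend and robust settings, array weights, subtraction of each chromosome's median difference, and omission of each array.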

Additional observations from a re-analysis of the deposited data

How the results depend on the processing

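Of the 8 members, 4 passed on all arrays, and omission of each array in turn gave 2 to 4: 3 without diploid replicate 2, where Lifr was lost, and 2 without diploid replicate 3, where Lifr and Socs3 were lost. The count was 4 in the other settings, although without probe sets that may match several transcripts Stat3 was lost and Pim3 gained. Of the other pathway genes 11 passed on all arrays and 6 to 12 with an array omitted, the lowest without diploid replicate 2 or 3. Over all genes 2707 passed, and 970 to 2428 with an array omitted: diploid replicate 3 left 970, diploid replicate 2 left 1196 and haploid replicate 2 (HAP2) left 1429. With every probe set on its own 5098 of 45037 passed, over a larger table. The split of 1441 higher and 1266 lower genes became 1136 and 1605 with chromosome medians subtracted. After a further quantile normalization it was 1234 higher and 1457 lower. Il6st turned to -0.0249 (log2) without diploid replicate 1 and to -0.0055 without haploid replicate 2, and lay between -0.0249 and 0.2645 over the omissions, passing in none of its settings. Jak2 was too dim to be in the setting of genes above the median level. No scaling moved the median of all genes by more than 0.1 (log2). No paired analysis was possible because the haploid titles name lines and give no replicate numbers. Strain, the male sex of the diploid samples, fibroblast marker levels and the beta-actin 3' to 5' difference move with ploidy. The 3 arrays a group limit what can be detected.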
